A study of Bos taurus with 9 samples.

Results

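The regions described here were RNA polymerase II (RNA pol II) binding sites of calf rumen epithelial tissue that carried 1 of the 2 histone acetylation marks profiled and lacked the other. They were chosen by overlap of peak lists from before weaning: a called RNA pol II peak was kept when it shared at least 1 bp with a peak of acetylated lysine 27 of histone H3 (H3K27ac) and touched no peak of acetylated lysine 9 (H3K9ac) and none of trimethylated lysine 9 (H3K9me3). The rule selected 653 of the 2056 RNA pol II peaks before weaning, or 31.8% (95% Wilson interval 29.8 to 33.8%), and 41.6% of the 1569 RNA pol II peaks that touched H3K27ac. The other RNA pol II peaks were 880 that touched both acetylation marks and no H3K9me3 (doubly acetylated sites), 5 with H3K9ac alone, 72 with none of the 3 histone marks and 446 with H3K9me3.

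The data were chromatin immunoprecipitation sequencing (ChIP-seq) peak lists of H3K9ac, H3K27ac, RNA pol II and H3K9me3 from rumen epithelial tissue of Holstein calves, taken before and after weaning, with 1 library for each target and time. A single input library served as control for all 8 lists, which together held 130580 peaks. The labels give neither the age of the calves nor the number of animals behind a library. With 1 library per group there is no replicate, so no difference across weaning was tested, and each 95% interval of a share covers counting error over peaks of 1 library, where neighbouring peaks are not independent. The lists fell from 74249 to 30446 peaks for H3K27ac, from 14384 to 2127 for H3K9ac and from 2056 to 738 for RNA pol II, and rose from 2410 to 4170 for H3K9me3. Read depth is not in the lists and was not used here, so a lost peak and a shallower library cannot be told apart from the lists. The libraries of H3K27ac and RNA pol II came from the same lane at both times, as did those of H3K9ac from another lane, and the lane of H3K9me3 changed between times.

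RNA pol II is the enzyme that transcribes protein-coding genes, and it is also bound at active enhancers, where short unstable transcripts are made. H3K27ac marks both active enhancers and active promoters, whereas H3K9ac is known best from the nucleosomes around active transcription start sites. H3K9me3 is a mark of heterochromatin. The rumen epithelium absorbs the volatile fatty acids of fermentation, and it matures when a calf passes from milk to solid feed. A site with RNA pol II and H3K27ac but no H3K9ac may lie at a distal enhancer or at the edge of a promoter domain. No gene annotation of the cattle build of these lists (UMD3.1) was used here, so start sites were not placed, and the tissue label was not checked against marker genes. The distance to the nearest H3K9ac peak was the measurement at hand.

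Just over 50% of the 653 sites lay within 1 kb of H3K9ac, and the rest were spread over a wide range of distances. Counted as the free bases between both peaks, the median distance to the nearest H3K9ac peak before weaning was 743 bp (95% order-statistic interval 575 to 890 bp), with quartiles of 230 and 17758 bp and a range from 0 to 1572991 bp. Within 200 bp of an H3K9ac peak lay 140 sites (21.4%), within 1 kb 361 (55.3%, 51.4 to 59.1%), within 10 kb 465 (71.2%) and within 100 kb 597 (91.4%). Between 1 kb and 10 kb there were thus fewer sites than within the nearest kilobase. Part of the nearness is fixed by the rule, since a site just off an H3K9ac peak is a site that missed the touch. Among the 72 RNA pol II peaks that touched no acetylation, which could not touch H3K9ac either, the median distance was 36897.5 bp and 7 (9.72%) lay within 1 kb. These 72 were also chosen to lack H3K27ac, which the 653 sites had to touch. The part of that choice in the difference was not tested.

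**Figure D1:**
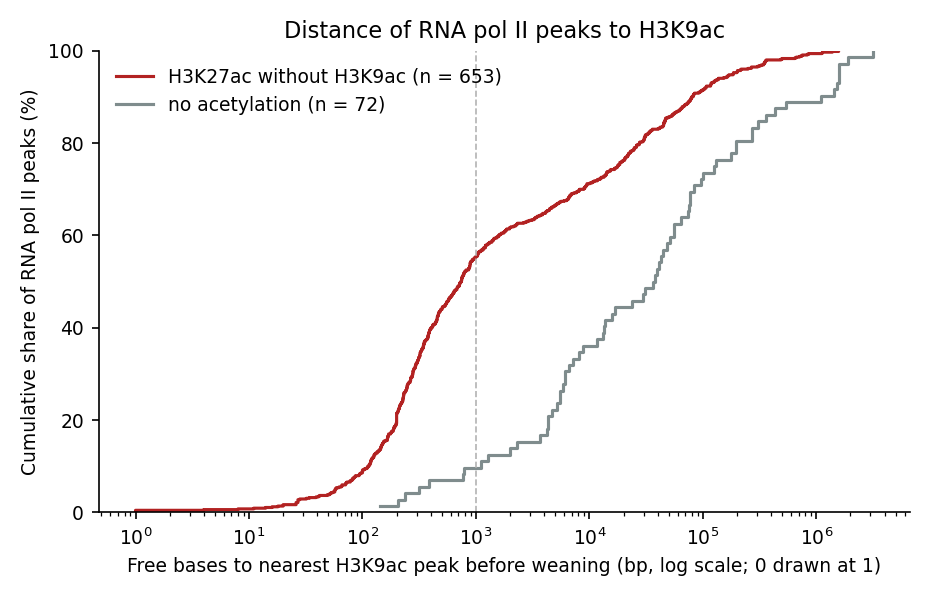
Cumulative share of RNA pol II peaks (y axis, %) by distance to the nearest H3K9ac peak before weaning (x axis, bp, log scale), for the 653 sites with H3K27ac alone and the 72 RNA pol II peaks without acetylation. The curve of the 653 sites passes 55.3% at 1 kb, where the curve of the unacetylated peaks stands at 9.72%. The sites were chosen to touch H3K27ac and the unacetylated peaks to lack it.

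For 229 sites (35.1%), an H3K27ac peak under RNA pol II also touched an H3K9ac peak elsewhere along its length. A further 137 (21.0%) had an H3K27ac peak of their own with H3K9ac within 1 kb, 99 (15.2%) lay 1 to 10 kb away, 132 (20.2%) lay 10 to 100 kb away and 56 (8.58%) lay over 100 kb away. The first 2 classes, 366 sites (56.0%), are called near sites below, and the other 287 (44.0%) far sites. The H3K27ac peaks had a median width of 1327 bp in the shared class, which only a peak spanning the gap to H3K9ac can enter, and of 648, 723, 691.5 and 637 bp in the other classes in order of distance. The RNA pol II peaks themselves had median widths between 242 and 255 bp in all 5 classes. H3K9ac lay within 2 kb on both sides of 122 sites (18.7%), on 1 side of 281 (43.0%) and on neither side of 250 (38.3%).

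The sites lay towards the ends of their H3K27ac peaks. Measured on the H3K27ac peak that shared most bases with a site, the centre of the RNA pol II peak fell within the outer 20% of its length at either end, or beyond it, in 402 sites (61.6%), compared with 354 (40.2%) of the doubly acetylated sites. Among H3K27ac peaks over 1 kb wide the shares were 65.8% (185 of 281) and 38.8% (207 of 533). Wholly inside 1 H3K27ac peak were 325 sites (49.8%, 45.9 to 53.6%) against 672 (76.4%, 73.4 to 79.1%) of the doubly acetylated. Less than 50% of the RNA pol II peak was inside in 70 sites (10.7%) against 23 (2.61%). The RNA pol II peaks were also slightly narrower, with a median of 251 bp (243 to 257 bp, range 200 to 891 bp) against 275 bp (270 to 284 bp). A narrow peak has less chance to touch any other list, and the rule removed the sites that touched H3K9ac, so width and position are linked to how the sites were chosen.

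Averaged over the near sites and turned so that the nearest H3K9ac peak lay on the positive side, H3K27ac before weaning covered 89.9% of the site centres, 94.0% of the positions 500 bp towards H3K9ac and 71.9% of those 500 bp away from it. H3K9ac covered 55.5% of the positions 500 bp towards it, by construction more than on the other side, where it covered 9.02%. The centre without H3K9ac and the shift of both marks to the positive side are set by how the near sites were selected and turned, and are given as a description. After weaning H3K27ac covered 46.7% of the centres, 56.6% of the positions 500 bp towards the former H3K9ac peak and 25.4% of those on the other side, and H3K9ac covered 1.91% of the positions 500 bp towards it. Around the 188 sites over 10 kb from H3K9ac, H3K27ac was nearly symmetric. It covered 89.9% of the centres and 61.7% and 66.5% of the positions 500 bp to the negative and positive side before weaning, and 34.0%, 14.9% and 16.5% after. At the doubly acetylated sites the centres were covered by H3K27ac in 97.5% before and 79.4% after weaning, and by H3K9ac in 79.8% and 7.05%.

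**Figure D2:**
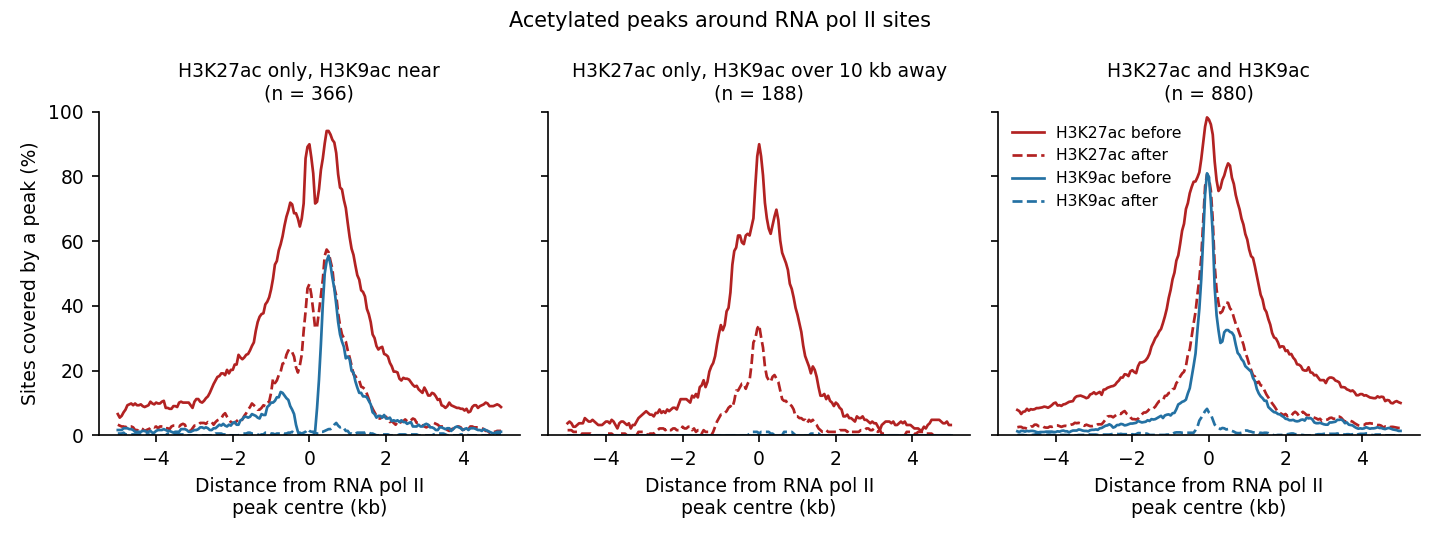
Share of sites covered by a called peak (y axis, %) against distance from the centre of the RNA pol II peak (x axis, kb), for near sites, sites over 10 kb from H3K9ac and doubly acetylated sites, with the nearest H3K9ac peak beside the site turned to the positive side. Lines stand for the H3K27ac and H3K9ac lists before and after weaning: at near sites, which were selected and turned by the nearest H3K9ac peak, H3K27ac covers more positions on that side at both times, and H3K9ac after weaning stays close to 0.

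After weaning RNA pol II was called at almost none of the 653 sites. A peak of RNA pol II after weaning touched 4 of them (0.613%, 0.238 to 1.56%), against 396 of all 2056 RNA pol II peaks before weaning (19.3%). The 880 doubly acetylated sites gave 16 (1.82%, 1.12 to 2.93%), an interval that overlaps that of the 653 sites. Of the 446 peaks with H3K9me3, 367 (82.3%) had RNA pol II after weaning, which made up 92.7% of the 396. Of all 1610 RNA pol II peaks without H3K9me3, 29 (1.80%) had RNA pol II after weaning. The low share did not extend to each class of them: the 72 peaks without acetylation gave 7 (9.72%, 4.79 to 18.7%) and the 5 with H3K9ac alone gave 2. None of the 653 sites lay in the dense cluster of RNA pol II peaks at 50 to 52 Mb of chromosome 17, where 108 of 127 peaks (85.0%) had RNA pol II after weaning, and without that cluster the share over all RNA pol II peaks was 14.9%. RNA pol II after weaning lay within 1 kb of 6 sites and within 10 kb of 12, against 20 and 26 of the doubly acetylated and 433 (21.1%) and 469 (22.8%) of all RNA pol II peaks. Since the rule removed H3K9me3, the 1610 RNA pol II peaks without H3K9me3, which include the 653, are given beside the share over all RNA pol II peaks for the other marks. Which RNA pol II list belongs to which time was taken from the labels, and the study's text gives the shorter list to the other time. If only the RNA pol II labels were exchanged, the 653 sites would be RNA pol II peaks after weaning set against acetylation before it. Their overlap with the other RNA pol II list would then run the other way in time. If the time labels of all lists were exchanged, each change given here would run the other way.

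H3K27ac, by contrast, was still called at more than 50% of the sites when 1 shared bp was enough. A peak of H3K27ac after weaning touched 357 of the 653 (54.7%, 50.8 to 58.5%). The share over all RNA pol II peaks before weaning was 66.0%, over those without H3K9me3 it was 72.1% (69.9 to 74.2%), and the 880 doubly acetylated sites reached 799 (90.8%, 88.7 to 92.5%). The interval of the 653 sites lies below all of these. H3K27ac after weaning lay within 1 kb of 515 of the 653 sites (78.9%, 75.6 to 81.8%), of 78.8% of all RNA pol II peaks, of 85.0% (83.2 to 86.7%) of those without H3K9me3 and of 95.8% of the doubly acetylated. Of the 446 peaks with H3K9me3, 195 (43.7%) had H3K27ac after weaning, and of the 72 without acetylation 3 (4.17%). The H3K27ac list shrank over weaning as a whole: of the 62851 H3K27ac peaks before weaning without H3K9ac and H3K9me3, 21.0% touched H3K27ac after weaning. Where a site and H3K27ac after weaning met, the peak with most overlap shared a median of 200 bp (5 to 497 bp). The level depended on the overlap rule. At a reciprocal overlap of 50%, 25.4% of the sites had H3K27ac after weaning, and with peaks after weaning extended by 500 bp 75.5%.

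H3K9ac appeared after weaning at 12 of the 653 sites (1.84%, 1.05 to 3.18%), all of them with H3K27ac after weaning as well. Over all RNA pol II peaks the share was 17.5%, over those without H3K9me3 it was 7.14%, and in the doubly acetylated sites it was 11.0% (97 sites, 9.12 to 13.3%). The 72 peaks without acetylation gave 4 (5.56%, 2.18 to 13.4%), an interval that overlaps that of the 653 sites. The doubly acetylated sites carried H3K9ac at the start, so theirs is a share kept, whereas the 12 are sites where H3K9ac was called only after weaning. H3K9me3 was called after weaning at 1 site (0.153%, 0.0270 to 0.862%) against 20.4% of all RNA pol II peaks, of which 404 of 419 had H3K9me3 before weaning and were removed by the rule, and 0.932% (0.565 to 1.53%) of those without H3K9me3. The nearest H3K9me3 peak before weaning to that site lay 844370 bp away, and over the 653 sites this distance had a median of 910607 bp and was never below 1978 bp. No peak of any target was called after weaning at 294 sites (45.0%, 41.2 to 48.9%), against 22.1% of all RNA pol II peaks, 26.7% of those without H3K9me3 and 79 (8.98%) of the doubly acetylated. H3K27ac was the only mark after weaning at 343 sites (52.5%, 48.7 to 56.3%), against 50.6% of all RNA pol II peaks, 64.5% of those without H3K9me3 and 78.9% of the doubly acetylated. These levels hold for 1 shared bp. With peaks after weaning extended by 500 bp, 24.3% of the sites had no peak and 4.44% had H3K9ac. At a reciprocal overlap of 50% the shares were 74.0% and 0.766%.

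**Figure D3:**
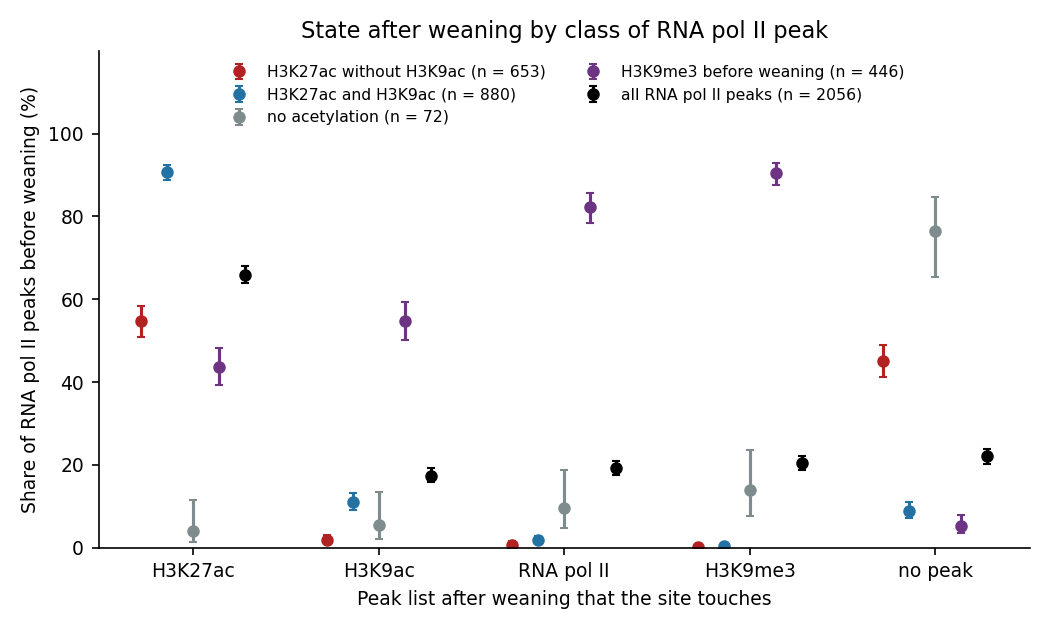
Share of RNA pol II peaks before weaning (y axis, %) touched by each list after weaning, or by no list (x axis), with points coloured by class of peak and error bars for 95% Wilson intervals that cover counting error only. The sites with H3K27ac alone reach 54.7% for H3K27ac and 0.613% for RNA pol II, the doubly acetylated sites 90.8% and 1.82%, and the sites with H3K9me3 43.7% and 82.3%.

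H3K27ac was called after weaning more often at near than at far sites. It was found after weaning at 155 of the 229 sites in a shared H3K27ac peak (67.7%, 61.4 to 73.4%), at 75 of the 137 with H3K9ac within 1 kb (54.7%), at 43 of the 99 at 1 to 10 kb (43.4%), at 63 of the 132 at 10 to 100 kb (47.7%) and at 21 of the 56 beyond (37.5%). Near sites as a whole stood at 62.8% (230 of 366, 57.8 to 67.6%) and far sites at 44.3% (127 of 287, 38.6 to 50.04%), and these intervals do not overlap. The 3 classes beyond 1 kb did not separate beyond counting error. With H3K9ac within 2 kb on both sides the share was 69.7% (85 of 122), on 1 side 58.0% (163 of 281) and on neither 43.6% (109 of 250). The shared class held 94.8% (217 of 229) when H3K27ac after weaning was counted anywhere along the H3K27ac peak, so the mark was usually still on that peak where the RNA pol II edge itself was left without it. The same count gave 62.0%, 50.5%, 56.1% and 48.2% in the 4 classes further out. It gave 94.3% for the doubly acetylated sites, 79.7% for RNA pol II peaks without H3K9me3 and 64.0% for all RNA pol II peaks. In the last 2 groups, peaks with no H3K27ac before weaning could not count. The shared class also had the widest H3K27ac peaks, and the part of that width in its share was not tested. H3K9ac after weaning fell on 4, 4, 0, 3 and 1 sites of the 5 classes, too few to order them.

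**Figure D4:**
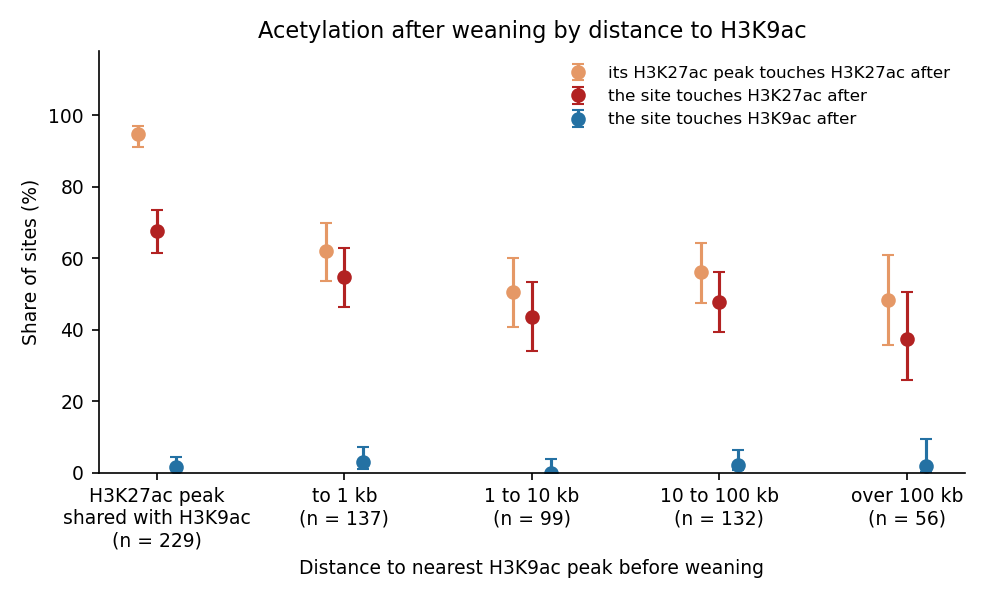
Share of the 653 sites (y axis, %) touched by H3K27ac after weaning, share whose H3K27ac peak was touched anywhere, and share touched by H3K9ac after weaning, in 5 classes of distance to H3K9ac before weaning (x axis), with 95% Wilson intervals. The share at the site goes from 67.7% in a shared H3K27ac peak to 37.5% beyond 100 kb, and the share along the H3K27ac peak from 94.8% to 48.2%.

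Sites with and without H3K27ac after weaning also differed in other features from before weaning. The 357 sites with H3K27ac after weaning had lain in wider H3K27ac peaks (median 1003 bp) than the 296 without (731.5 bp), and closer to H3K9ac (462 against 1557 bp). The share rose with the fraction of the RNA pol II peak inside H3K27ac, from 23 of 70 (32.9%) under 50% inside, through 133 of 258 (51.6%), to 201 of 325 (61.8%) wholly inside. Sites up to their median width of 251 bp gave 51.2% (169 of 330, 45.8 to 56.6%) and wider ones 58.2% (188 of 323, 52.8 to 63.5%), with intervals that overlap. The part of width in the difference between near and far sites was not tested on the sites themselves. Of the 296 sites without H3K27ac after weaning, 96 (32.4%) lay in an H3K27ac peak that was still touched elsewhere, and 158 (53.4%) had H3K27ac after weaning within 1 kb.

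Counted by H3K27ac peak, the 653 sites touched 690 H3K27ac peaks, of which 467 (67.7%) met H3K27ac after weaning. Of these, 228 touched H3K9ac, and 211 of them (92.5%) met H3K27ac after weaning. The share was 93.1% for the H3K27ac peaks of doubly acetylated sites. It was 62.9% for the 10318 H3K27ac peaks with H3K9ac and without RNA pol II and H3K9me3. Those were narrower than the 228, with a median of 710 against 1320 bp. Among those 690, 462 touched no H3K9ac, and these can be set beside the 62373 H3K27ac peaks with no RNA pol II, H3K9ac or H3K9me3. The RNA pol II-bearing peaks were wider, with a median of 648.5 against 312 bp, and lay nearer to H3K9ac, at 4555 against 18361 bp. They met H3K27ac after weaning in 55.4% (256 of 462, 50.9 to 59.9%) against 20.8% (20.4 to 21.1%). Part of this gap went with width, which was compared in classes. At 200 to 400 bp the shares were 25.7% (18.4 to 34.6%) with RNA pol II and 13.2% (12.9 to 13.5%) without, at 401 to 800 bp 54.6% (47.4 to 61.7%) and 31.0% (30.3 to 31.7%), and at 801 to 1600 bp 75.0% (67.2 to 81.4%) and 55.6% (54.0 to 57.1%). Above 1600 bp they were 76.7% (59.1 to 88.2%) and 79.8% (74.2 to 84.5%), where the intervals overlap. H3K27ac peaks with RNA pol II met H3K27ac after weaning more often in the 3 narrower classes, by 12.5 to 23.7 percentage points. The width classes were not matched for distance to H3K9ac, so the part of nearness to H3K9ac in this gap was not tested. Peak height is not in the lists, and a stronger H3K27ac signal under RNA pol II at equal width cannot be told apart from RNA pol II itself. H3K9ac after weaning met 9 of the 462 (1.95%) and 0.907% of the 62373.

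The named sites are given by position on UMD3.1, counted from 1, by a rule on width, distance and outcome, and the bases a site shares with a list are those shared with the peak that overlaps it most. The widest was chr1:143172486-143173376, with 891 bp. It spanned parts of 2 H3K27ac peaks, lay 695 bp from H3K9ac and shared 333 bp with H3K27ac after weaning. Next came chr23:7238933-7239798 (866 bp), chr29:41174517-41175334 (818 bp), chr7:4859612-4860322 (711 bp) and chr19:56453488-56454163 (676 bp). All 5 of the widest had H3K27ac after weaning, and 4 of them lay in an H3K27ac peak shared with H3K9ac.

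All 4 sites with RNA pol II after weaning can be listed. At chr23:7238933-7239798, RNA pol II after weaning shared 200 bp, and so did the H3K27ac peak after weaning with most overlap, beside another H3K27ac peak over the same site, and H3K9ac before weaning lay 1035 bp away. At chr21:68600788-68601317 (530 bp), they covered 214 and 241 bp, and H3K9ac lay 1593 bp away. That site on chromosome 21 was a far site as well. The remaining pair lay over 10 kb from H3K9ac, and no H3K27ac peak after weaning touched them. At chr19:51174626-51175017 (392 bp), 30946 bp from H3K9ac, RNA pol II after weaning covered 230 bp and the nearest H3K27ac after weaning was 58 bp off. At chr6:46988096-46988429 (334 bp), 78447 bp from H3K9ac, RNA pol II after weaning covered 218 bp and H3K9me3 after weaning 206 bp. This last site was the 1 site where H3K9me3 was called.

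Among the 12 sites with H3K9ac after weaning, the widest was chr19:36233776-36234125 (350 bp), with 246 bp under H3K27ac and 167 bp under H3K9ac after weaning and an earlier H3K9ac peak 452 bp away. The next, chr1:131351463-131351808 (346 bp), lay 63659 bp from any H3K9ac before weaning and had 153 bp under H3K27ac and 155 bp under H3K9ac after it. At chr11:87897483-87897821 (339 bp), all 339 bp were under H3K27ac and 228 bp under H3K9ac after weaning, and the earlier H3K9ac lay 417 bp away. Both near and far sites were thus among them.

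Closest to H3K9ac were chr22:49256536-49256912, which abutted an H3K9ac peak with 0 bases between, chr23:17261781-17262000 and chr29:41693558-41693876, both with 1 base between, chr8:11390624-11390891 with 4 and chr15:56962226-56962432 with 8. All 5 lay in an H3K27ac peak shared with H3K9ac, and those on chromosomes 22, 23 and 15 had H3K27ac after weaning. Farthest were chr17:2842892-2843252 at 1572991 bp, chrX:11968196-11968420 at 1384288 bp, chr12:1752561-1752807 at 1132515 bp, chrX:79554329-79554635 at 1122059 bp and chr19:59494767-59495089 at 857947 bp. The site on chromosome 12 kept H3K27ac over 245 bp, and the other 4 had no peak of any target after weaning.

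**Figure D5:**
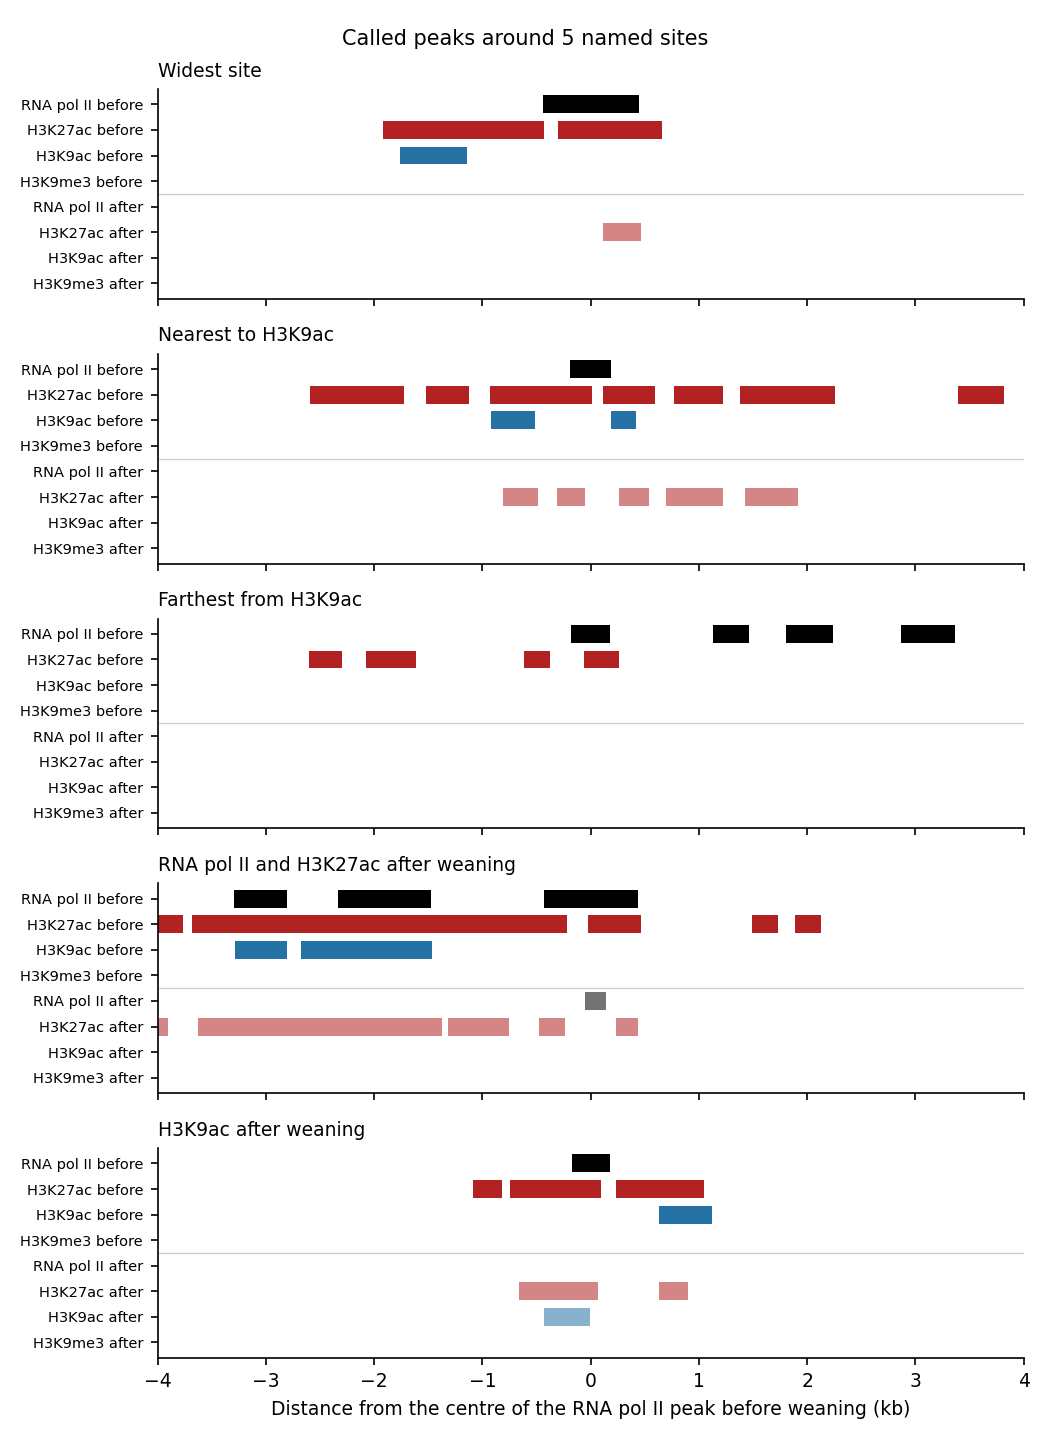
Called peaks of each target before and after weaning (rows) within 4 kb of the centre of 5 named sites (x axis, kb from the centre of the RNA pol II peak). The widest site and the site abutting H3K9ac have H3K27ac before and after weaning, and the site farthest from H3K9ac has H3K27ac and RNA pol II before weaning and no peak over it after.

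The limits of the rule left some sites barely in or out. Just inside, chr16:25936838-25937041 shared 3 bp with H3K27ac, and chr3:19289244-19289488 and chr3:23767180-23767379 shared 27 bp each. Kept out by H3K9ac were chr4:94650177-94650376 with 1 bp under H3K9ac, chr14:2164663-2164865 with 4 bp and chr18:55717047-55717264 with 5 bp. Kept out for want of H3K27ac were chr19:53965165-53965364, with 1 base between it and H3K27ac, chr23:11716021-11716262 with 23 bases and chr18:19655498-19655826 with 33 bases. None of the 3 sites barely inside had H3K27ac after weaning, all 3 kept out by H3K9ac had it, and of the 3 kept out for want of H3K27ac the site on chromosome 23 had it over 198 bp.

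The sites were spread over all 30 chromosomes of the RNA pol II list before weaning. The highest counts were on chromosome 19 (52 of its 165 RNA pol II peaks before weaning), chromosome 18 (42 of 94) and chromosome 7 (39 of 91). As a share of the RNA pol II peaks of a chromosome they were fewest on chromosome 17 (20 of 206, 9.71%), which holds the dense cluster, and most on chromosome 16 (24 of 49, 49.0%). Among neighbours, 67 (10.3%) had another of the 653 within 10 kb, 76 (11.6%) a doubly acetylated RNA pol II peak within 1 kb and 108 (16.5%) within 10 kb.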

How the data were processed

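ChIP-seq libraries of H3K9ac, H3K27ac, RNA pol II and H3K9me3 from rumen epithelial tissue before and after weaning were analysed as the peak lists the authors deposited, 1 per library, with an input library behind all of them. Per the labels, reads were trimmed with Trim Galore 0.4.1, aligned with BWA to the cattle build UMD3.1 and called with MACS2. The study's methods give default settings for both and keep uniquely aligned reads. The deposited values are chromosome, start and end, with no height, fold or q-value. Peaks were called per library. Time points follow the labels, although the study's text assigns the shorter RNA pol II list to the other time.

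Overlap meant at least 1 shared bp, and positions were read as 1-based and inclusive. Distances are free bases between peaks. Shares have 95% Wilson intervals and medians have order-statistic intervals. They cover counting error only. Depth is not in the lists, and the study's mapping summary, which names libraries by treatment codes rather than by weaning, was not used here. With 1 library per group no test was run. The overlap code was tested on planted peaks. The regions, classes and alternatives were chosen with earlier results of these data known. Named were the 5 widest, nearest and farthest sites, all with RNA pol II or H3K9me3 after weaning, the 3 widest with H3K9ac after weaning, and the 3 nearest each limit of the rule. Alternatives merged or left out peaks, changed the overlap or the rule, or left out the chromosome 17 cluster. No genome or annotation of the build was used here, so no gene, start site or sequence is given. Python 3.11.15, pandas 2.3.3, numpy 2.4.6, scipy 1.17.1 and matplotlib 3.10.9 were used.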

Additional observations from a re-analysis of the deposited data

How the results depend on the processing

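Of 98 recomputed values, 75 stayed within the counting interval of the reported value or, for the number of sites, within 1.5 times of it, and 23 did not. These counts are not a measure of robustness. Leaving out the chromosome 17 cluster kept the same 653 sites, so only their share of RNA pol II peaks could change. The other settings also shared many of the sites. Requiring no H3K9ac within 1 kb left 292 sites (14.2% of RNA pol II peaks), by construction 0% within 1 kb, with 1.71% in an H3K27ac peak that touched H3K9ac and a median distance of 22153 bp. Of these, 44.5% had H3K27ac after weaning and 54.8% no peak. Keeping RNA pol II peaks wider than the median of all 2056 (271 bp) left 260 sites (25.3% of 1026 such peaks) with a median width of 336.5 bp, of which 60% had H3K27ac after weaning and 39.2% no peak. Sites at least 50% inside H3K27ac made up 28.4% of RNA pol II peaks, and without the chromosome 17 cluster the share was 33.9%. Merging peaks within 1 kb put 53.5% of sites in an H3K27ac peak that touched H3K9ac, 45.9% within 1 kb and the median distance at 1378 bp.

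The overlap rule set the level of the outcome. With peaks after weaning extended by 500 bp, 75.5% of the sites had H3K27ac, 4.44% H3K9ac and 24.3% no peak, and with a reciprocal overlap of 50%, 25.4%, 0.766% and 74.0%. The doubly acetylated sites stood above the 653 for H3K27ac under both, at 94.5% and 45.3%, whereas all RNA pol II peaks, at 75.8% and 35.1%, had an interval that overlapped that of the sites under the first, and those without H3K9me3, at 82.9% and 35.3%, had intervals above that of the sites under both. RNA pol II after weaning stayed at 0.766% and 0.306%. No paired analysis was possible because each group holds 1 library.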

Other observations

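The distance of exactly 200 bp was the most frequent between the 653 sites and the nearest H3K9ac peak: 14 sites had it, and the next most frequent, 27 bp, occurred 4 times. It was also the most frequent gap between neighbouring H3K27ac peaks before weaning (1848 of 74219 gaps, the next being 132 gaps of 55 bp), the most frequent distance from sites without H3K27ac after weaning to the nearest such peak (8 of 296) and the lowest and most frequent width of the sites (76 of 653). The part of the peak caller's spacing in these distances was not tested.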
